A study of Mus musculus with 6 samples.

Results

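The subunit genes of the GABA-A receptor were compared between the hippocampus of wild-type (WT) mice and of transgenic (TG) mice whose Slc1a2 gene carries the G82R/L85P variant. The 7 genes Gabra2, Gabra3, Gabra4, Gabra5, Gabrb1, Gabrb2 and Gabrd were taken by symbol from the 54532 genes of the deposited table, with no threshold on a measured value. RNA of 3 WT and 3 TG hippocampi was sequenced, and each library is named by group and replicate number (WT1, for example), with values listed in the order of these numbers. Per the study's methods, the TG mice are a CRISPR/Cas9 knock-in in which Gly-82 and Leu-85 of GLT-1, the astrocytic glutamate transporter encoded by Slc1a2, are replaced, and the WT controls are littermates. The methods describe heterozygous offspring of the founders, the labels give neither the age nor the zygosity of the sequenced mice, and they do not state which library came from which sex. Values are FPKM, read counts scaled to gene length and to library size, so levels of different genes can be set side by side. Each library held 16081281 to 18751057 reads on genes.

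The GABA-A receptor is a chloride channel that opens when GABA, the main inhibitory transmitter of the adult brain, binds to it. A channel is assembled from subunits of several classes. The alpha and beta subunits form the GABA binding sites. The third class in a receptor, usually gamma or delta, helps to set where the receptor sits and which drugs act on it. In the hippocampus, alpha2 receptors lie at synapses, alpha5 receptors lie largely outside synapses on pyramidal cells, and receptors of alpha4 with delta carry tonic inhibition in dentate granule cells. The alpha3 subunit is better known from cortex and brainstem, and the beta1 and beta2 subunits differ in their response to the anaesthetic etomidate.

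The members resemble each other in sequence, and the positions by which they are told apart pharmacologically can be read in the reference transcripts (GENCODE M21, GRCm38, coding strand, 5′ to 3′). The alpha genes are shown around the codon on which binding of diazepam-type drugs depends, in capitals. As background, receptors with a histidine there bind these drugs and receptors with an arginine do not.
Gabra2: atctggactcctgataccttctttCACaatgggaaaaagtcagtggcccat
Gabra3: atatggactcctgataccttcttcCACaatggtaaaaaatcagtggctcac
Gabra4: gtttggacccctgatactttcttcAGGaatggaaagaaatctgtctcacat
Gabra5: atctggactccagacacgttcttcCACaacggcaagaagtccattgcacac
The codon is CAC, for histidine, in Gabra2, Gabra3 and Gabra5, and AGG, for arginine, in Gabra4. Over these 51 bases, Gabra2 and Gabra3 were the most alike of the alpha genes, with 6 differing bases, and Gabra4 and Gabra5 the least alike, with 17. The beta genes are shown around the codon in the pore-lining segment by which etomidate discriminates between beta subunits, again in capitals.
Gabrb1: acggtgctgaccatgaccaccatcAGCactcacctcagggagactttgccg
Gabrb2: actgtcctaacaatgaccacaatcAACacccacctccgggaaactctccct
The stretches of Gabrb1 and Gabrb2 differed at 12 of 51 bases. All of these stretches are coding sequence within an exon. That of Gabra2 lies in exon 5 at chr5:71014481-71014531 on the minus strand, that of Gabra3 in exon 5 at chrX:72501144-72501194 on the minus strand, that of Gabra4 in exon 4 at chr5:71641128-71641178 on the minus strand and that of Gabra5 in exon 5 at chr7:57488867-57488917 on the minus strand. The stretch of Gabrb1 lies in exon 8 at chr5:72121957-72122007 and that of Gabrb2 in exon 8 at chr11:42597549-42597599, both on the plus strand.

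The 7 genes together had a summed FPKM of 159, 162 and 157 across the WT libraries and 161, 144 and 152 across the TG libraries, so the groups overlapped. They made up 53.1% to 54.3% of the summed FPKM of all 19 ionotropic GABA receptor subunit genes in every library. Gabra5 was the most abundant member in both groups, 3.78 times the next gene in WT mice and 3.09 times in TG mice, and its values overlapped with those of no other member. Gabra3, Gabrb2, Gabra4 and Gabrb1 followed, with group means between 14.7 and 20.8 FPKM. In WT mice each of these genes overlapped with its neighbour in the order of levels, and in TG mice Gabra3 lay above Gabrb1 in all libraries. Gabrd and then Gabra2 were the least abundant, and both steps down, from the preceding gene to Gabrd and from Gabrd to Gabra2, were free of overlap in WT mice and in TG mice. The members rested on 404 reads (Gabrd in TG1) to 4335 reads (Gabra5 in WT3) per library. The order of levels depends on the length by which reads are divided. In reads not divided by length, Gabrb1, the longest member, held more than Gabra5 in every library except WT3.

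The groups were compared with limma on log2(FPKM + 0.1) over 20952 genes (mean FPKM of 0.1 or more), 3 WT against 3 TG libraries, with Benjamini-Hochberg adjustment over all of them. None of the 7 members differed at an adjusted p under 0.05, the smallest adjusted p being 0.786, where 0.00955% of all genes tested were called, 0.00477% in each direction. Those shares stand for 1 gene each way, and without TG1 the fit called 11 genes higher and 0 lower, none of them a member. With limma-voom on the reads recovered from the FPKM, none was called either, and the smallest adjusted p was 0.750. At an unadjusted p under 0.05, Gabra5 was lower in TG mice with either test and no member was higher, where 2.78% of all genes tested were lower and 3.13% were higher (5.91% together) with limma, and 2.31% and 3.67% with limma-voom. Gabra4 and Gabra5 were the members whose TG values lay all below their WT values, where 5.71% of all genes tested had groups apart in this direction, and no member had groups apart in the other direction, where the share was 6.35%. The median log2 fold change of the members was -0.00082, beside -0.0020 for all genes tested.

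**Figure D1:**
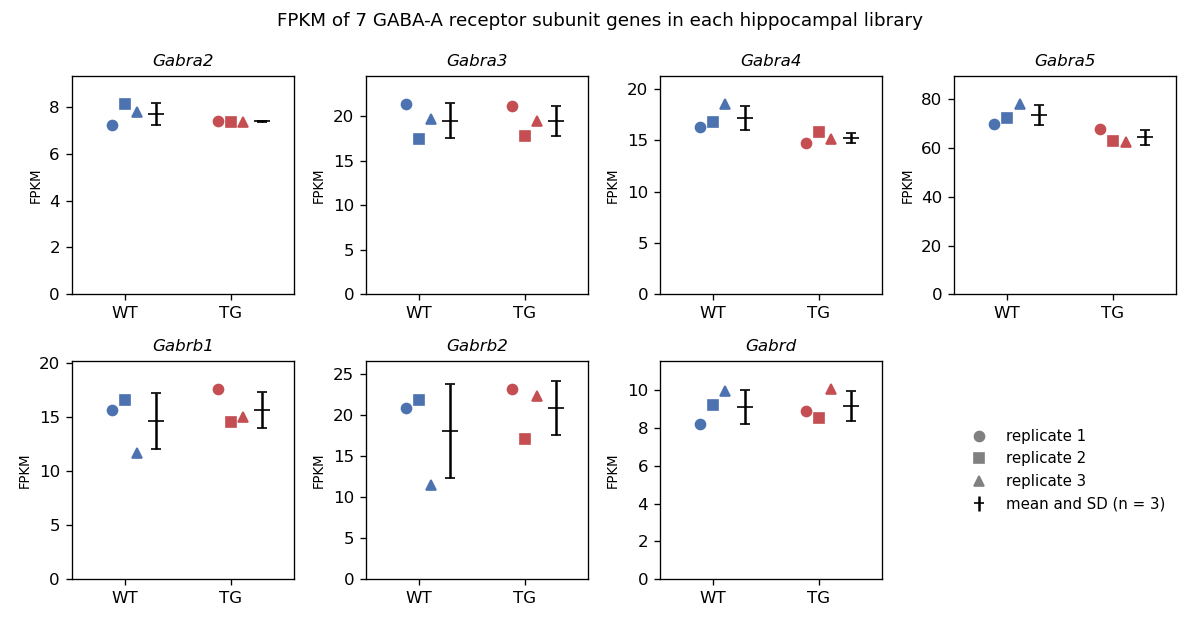
FPKM (vertical axes, each from 0) of the 7 members in the 3 WT (blue) and 3 TG (red) libraries, with marker shapes for the replicate number and the mean ± SD (n = 3) as a bar at the side. The TG values of Gabra4 and Gabra5 lie below all WT values, whereas WT3 lies at 11.4 FPKM in Gabrb2 and 11.7 FPKM in Gabrb1, below every other library.

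Gabra5 (ENSMUSG00000055078, chromosome 7 from 57407672 to 57510059, minus strand, GRCm38) encodes the alpha5 subunit. Its FPKM was 69.8, 72.5 and 77.9 across the WT libraries and 67.9, 62.9 and 62.5 across the TG libraries. All TG libraries lay below all WT libraries, with 1.95 FPKM between TG1 and WT1, the closest pair. The mean was 73.4 ± 4.09 (WT) and 64.4 ± 2.99 (TG) (SD, n = 3 each), so the TG mean was 87.8% of the WT mean. The log2 fold change was -0.19 (standard error 0.0729, 95% interval -0.36 to -0.016), with an unadjusted p of 0.0358 and an adjusted p of 0.786 in limma. Leaving out each library in turn gave fold changes between -0.23 and -0.14 on the log2 scale, and the unadjusted limma p was above 0.05 without WT2 (0.0644), WT3 (0.0649), TG2 (0.109) or TG3 (0.124). With each library corrected for gene length and GC content, an alternative chosen after seeing the data, the log2 fold change was -0.12 with an unadjusted limma p of 0.0888, and WT1 then lay below TG1. Of the 2974 exonic bases of Gabra5, 148 are shared with the exons of Gm9962 on the other strand, and since the counting is not stated to use strand, reads there cannot be assigned to either gene.

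Gabra4 (ENSMUSG00000029211, chromosome 5 from 71569749 to 71658308, minus strand) encodes alpha4, the partner of delta in tonic receptors. The FPKM was 16.3, 16.8 and 18.5 across the WT libraries and 14.8, 15.8 and 15.2 across the TG libraries. The groups did not overlap, although TG2 and WT1 were only 0.471 FPKM apart. The TG mean of 15.2 ± 0.509 was 88.7% of the WT mean of 17.2 ± 1.17 (SD, n = 3 each). The log2 fold change was -0.17 (standard error 0.0740, 95% interval -0.34 to 0.0036), with an unadjusted p of 0.0538 and an adjusted p of 0.786 in limma. With each library left out in turn, the log2 fold change lay between -0.21 (without WT1) and -0.12 (without WT3). The unadjusted limma p was 0.0479 without WT1. It was above 0.05 without WT2 (0.0763), WT3 (0.109), TG1 (0.131), TG2 (0.0705) or TG3 (0.127). The correction for length and GC, which was not planned in advance, again gave a log2 fold change of -0.17. Its unadjusted limma p was 0.0441 and the groups were again apart. In that fit, 2.16% of all genes tested were lower at an unadjusted p under 0.05, and 5.26% had groups apart in this direction.

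Gabrd (ENSMUSG00000029054, chromosome 4 from 155384980 to 155398112, minus strand) encodes the delta subunit. Its FPKM was 8.18, 9.22 and 9.98 across the WT libraries and 8.88, 8.52 and 10.03 across the TG libraries. The values of the groups were interleaved, with means of 9.13 ± 0.900 and 9.14 ± 0.792 (SD, n = 3 each). The log2 fold change of 0.0041 had a 95% interval from -0.24 to 0.24 (limma, adjusted p = 0.995), so smaller differences in either direction were not resolved. It was 0.16 with a score of choroid plexus markers, which were high in TG1 and TG2, as covariate and 0.14 without both TG1 and TG2, with unadjusted limma p of 0.256 and 0.397. The log2 ratio of Gabrd to Gabra4, which does not depend on the scaling of a library, was -0.99, -0.87 and -0.89 across the WT libraries and -0.73, -0.89 and -0.60 across the TG libraries. Of the TG libraries, TG1 and TG3 lay above all WT libraries and TG2 lay within the WT range.

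Gabra2 (ENSMUSG00000000560, chromosome 5 from 70957597 to 71095849, minus strand) encodes alpha2, found at synapses on pyramidal cells including the axon initial segment. The FPKM was 7.21, 8.10 and 7.78 across the WT libraries and 7.42, 7.37 and 7.36 across the TG libraries. The TG values sat close together inside the WT range. The means were 7.70 ± 0.454 and 7.38 ± 0.0326 (SD, n = 3 each), and the log2 fold change was -0.058 (95% interval -0.24 to 0.12, adjusted p = 0.856 in limma).

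Gabra3 (ENSMUSG00000031343, chromosome X from 72432681 to 72656848, minus strand) encodes alpha3. The FPKM was 21.3, 17.4 and 19.7 across the WT libraries and 21.1, 17.7 and 19.4 across the TG libraries, and the groups covered nearly the same range. The means were 19.4 ± 1.96 (WT) and 19.4 ± 1.71 (TG) (SD, n = 3 each). The log2 fold change was -0.00082 (95% interval -0.24 to 0.24, adjusted p = 0.998 in limma), and its sign changed under TPM scaling.

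Among the 4 alpha members, Gabra5 took the largest share of the summed FPKM in each library. The sum holds these 4 genes alone and no other alpha subunit gene. The share of Gabra5 was 60.9%, 63.2% and 62.9% across the WT libraries and 61.0%, 60.6% and 59.8% across the TG libraries, so TG1 lay inside the WT range and the groups overlapped. Gabra3 took 16.5% ± 1.81 of the sum in WT mice and 18.2% ± 1.02 in TG mice, Gabra4 took 14.6% ± 0.377 and 14.3% ± 0.976, and Gabra2 took 6.55% ± 0.445 and 6.94% ± 0.234 (SD, n = 3 each). The share of Gabra4 in the TG libraries lay between 13.3% and 15.2%, on both sides of the WT libraries at 14.2% to 14.9%. The shares depend on the length by which reads are divided. In recovered reads, not divided by length, Gabra5 took 47.7% (WT) and 45.9% (TG).

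**Figure D2:**
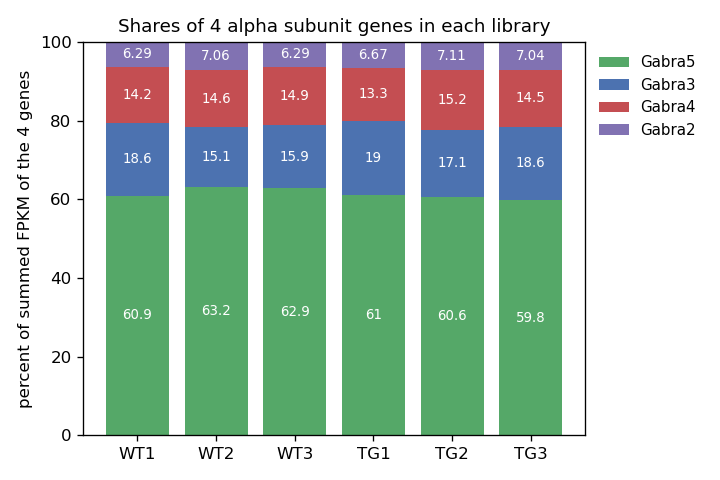
Share of each of the 4 alpha members in their summed FPKM (vertical axis, percent, stacked to 100) in the 6 libraries. Gabra5 takes 59.8% to 63.2% in every library, and the shares of the WT and TG libraries overlap for each gene.

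Gabrb2 (ENSMUSG00000007653, chromosome 11 from 42419757 to 42629028, plus strand) encodes beta2. The FPKM was 20.8, 21.8 and 11.4 across the WT libraries and 23.1, 17.1 and 22.3 across the TG libraries. WT3 held the lowest value of all libraries, and the other 5 lay between 17.1 and 23.1. The means were 18.0 ± 5.73 (WT) and 20.8 ± 3.25 (TG) (SD, n = 3 each). The log2 fold change was 0.25 (standard error 0.249, 95% interval -0.33 to 0.84, adjusted p = 0.807 in limma), and without WT3 it was -0.046, so the direction rested on that library.

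Gabrb1 (ENSMUSG00000029212, chromosome 5 from 71658113 to 72149037, plus strand) encodes beta1. The FPKM was 15.6, 16.6 and 11.7 across the WT libraries and 17.6, 14.5 and 15.0 across the TG libraries, so WT3 was again the lowest. The means were 14.7 ± 2.61 and 15.7 ± 1.64 (SD, n = 3 each), with a log2 fold change of 0.11 (95% interval -0.23 to 0.45, adjusted p = 0.856 in limma) that became -0.045 without WT3. The log2 ratio of Gabrb1 to Gabrb2 was -0.41, -0.39 and 0.030 across the WT libraries and -0.40, -0.24 and -0.57 across the TG libraries. WT3 was the library in which the FPKM of Gabrb1 was as high as that of Gabrb2.

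WT3 stood apart from the other libraries over the whole table as well. On the log2 scale and over genes of mean FPKM 1 or more, its median distance from the gene mean was 0.19 in the shortest of 5 equal classes of gene length and -0.14 in the longest, against -0.13 and 0.083 in TG1 and -0.040 to 0.031 in the remaining 4 libraries. The members ranged in exonic length from 2875 bases (Gabrd) to 13838 bases (Gabrb1). In Gabrb2 (6360 bases), WT3 lay 0.86 below the mean of the other 5 libraries on the log2 scale, and 0.687% of the 582 genes in the same length and GC classes lay further down. In Gabrb1, WT3 lay 0.43 below, and 5.92% of 777 such genes lay further down. In Gabra5 and Gabra4, WT3 lay 0.22 and 0.23 above the other 5, and 58.3% and 86.5% of comparable genes lay lower. Thus Gabrb2 and Gabrb1 lay lower in WT3, and Gabra4 higher, than most genes of like length and GC content, while Gabra5 stood off by about as much. What set WT3 apart was not tested.

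**Figure D3:**
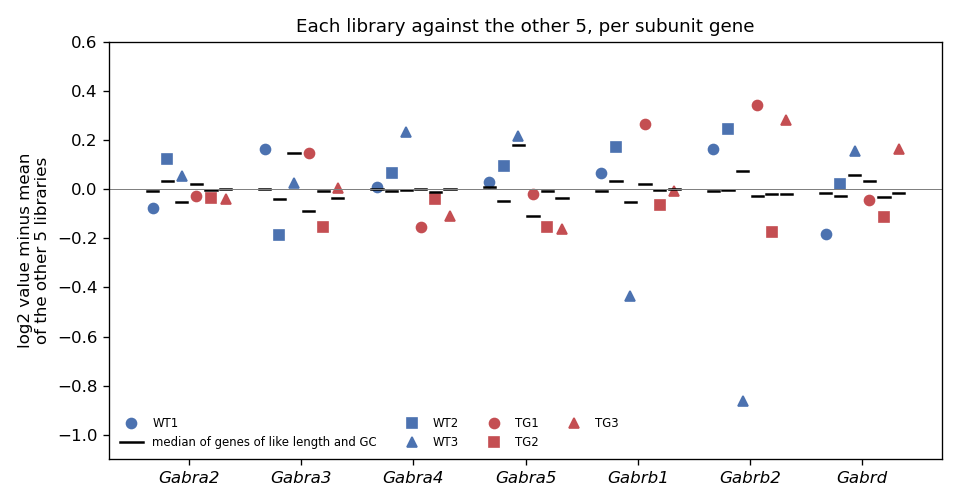
Log2(FPKM + 0.1) of each member in each library minus its mean in the other 5 libraries (vertical axis), with black dashes for the median of the genes in the same length and GC classes. Gabrb2 in WT3 sits at -0.86 and Gabrb1 in WT3 at -0.43, while the dashes for WT3 lie at 0.074 and -0.050.

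The members varied together in part across the 6 libraries, which is described by Pearson's r of log2(FPKM + 0.1) with no p. Gabrb1 and Gabrb2 ran together (r = 0.94), as did Gabra4 and Gabra5 (r = 0.83), and Gabra4 ran against Gabrb1 (r = -0.75) and Gabrb2 (r = -0.81). WT3 is an extreme library in each of these pairs. Gabra4 and Gabrb1 lie head to head on chromosome 5, where their annotated spans overlap by 196 bases and their exons share 46 bases, 0.76% of those of Gabra4 and 0.33% of those of Gabrb1. Gabra2 lies on the same chromosome, 473899 bases before Gabra4. The 4 other members, Gabra3, Gabra5, Gabrb2 and Gabrd, are each on a chromosome with no other member. Of 11916 protein-coding genes of mean FPKM 1 or more, those most like Gabrb2 over the 6 libraries were Auts2 (r = 0.9966) and Tcp11l1 (r = 0.9957), and those most like Gabrb1 were Klhl29 (r = 0.9977) and Rab3gap2 (r = 0.9941). Tcp11l1 had an FPKM of 2.31 in WT3 and of 3.54 to 4.58 in the other libraries, the same dip as in Gabrb2. Those most like Gabra4 were Pdcd2l (r = 0.9967) and Tmem183a (r = 0.9962), and those most like Gabra5 were Polr3c (r = 0.9922) and Tipin (r = 0.9891). For Gabra2 they were Arhgef25 (r = 0.9892) and Aspdh (r = 0.9799), for Gabra3 Sox1 (r = 0.9782) and Hagh (r = 0.9774), and for Gabrd Ccdc28a (r = 0.9781) and Syndig1 (r = 0.9665). With 6 libraries and this many genes, these values describe the libraries alone.

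The remaining 12 ionotropic GABA receptor subunit genes were taken by symbol. Of these, 7 reached the mean FPKM of 0.1 and were tested, and the other 5 held at most 12 reads in any library. None of the 7 was called at an adjusted p under 0.05 with limma or limma-voom, none had an unadjusted p under 0.05 with either, and none had groups apart. Their log2 fold changes lay between -0.13 and 0.14 with a median of -0.016. Gabrg3, which encodes a minor gamma subunit, had the smallest p on the higher side, with an FPKM of 2.02 ± 0.200 (WT) and 2.12 ± 0.182 (TG) (SD, n = 3 each). The summed FPKM of the 12 genes was 134 to 141 over the WT libraries and 125 to 138 over the TG libraries.

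Proteins that anchor, move or accompany GABA-A receptors were compared on a list of 25 genes, of which 24 were in the table and all 24 were tested. None was called at an adjusted p under 0.05 with limma or limma-voom, and at an unadjusted p under 0.05 a single gene was higher and none was lower with either, where 3.13% of all genes tested were higher with limma. That gene was Dag1, which encodes dystroglycan, a surface protein at inhibitory synapses. The FPKM of Dag1 was 19.2, 17.3 and 15.1 across the WT libraries and 21.5, 20.03 and 19.5 across the TG libraries, and the groups were apart by 0.317 FPKM, as they were in this direction in 6.35% of all genes tested. Its log2 fold change was 0.25 (standard error 0.0989, unadjusted p = 0.0394, adjusted p = 0.786 in limma). The number of genes of the list higher at an unadjusted p under 0.05 was 0 without WT2, WT3, TG1, TG2 or TG3 and 2 without WT1, and the number lower was 1 without TG1. Hap1, which encodes a trafficking adaptor of the receptor, had the smallest p on the lower side, with an FPKM of 54.0 ± 1.51 (WT) and 49.8 ± 6.20 (TG) (SD, n = 3 each). Gabarapl1, a relative of the GABA-A receptor associated protein, was the most abundant, at 239 ± 3.62 and 231 ± 7.09 FPKM (SD, n = 3 each). The scaffold gene Gphn, which encodes gephyrin, had 18.9 ± 0.503 and 18.6 ± 1.21 FPKM, and Nlgn2, the neuroligin of inhibitory synapses, had 53.0 ± 4.81 and 57.8 ± 8.08 (SD, n = 3 each), with overlapping groups in both genes. The log2 fold changes of the list had a median of 0.0078.

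The GABA-B receptor, the metabotropic receptor for the same transmitter, was compared with its Kctd auxiliary subunits on a list of 5 genes. None was called at an adjusted or an unadjusted p under 0.05 with limma or limma-voom, and the median log2 fold change was 0.12. Gabbr1, the most abundant, had an FPKM of 93.1 ± 4.37 (WT) and 92.9 ± 5.02 (TG) (SD, n = 3 each). Gabbr2 had 57.9, 56.0 and 38.3 across the WT libraries and 62.4, 51.3 and 54.1 across the TG libraries, so WT3 was the lowest library here too. Kctd12, with the smallest p on the lower side, had 10.8, 12.2 and 13.9 FPKM across the WT libraries and 13.8, 11.8 and 11.1 across the TG libraries, with overlapping groups. Kctd16, with the smallest p on the higher side, had 9.02, 10.4 and 4.47 FPKM across the WT libraries and 10.1, 8.19 and 11.3 across the TG libraries. WT3 was again the lowest library in Kctd16, and the log2 fold change of 0.38 (standard error 0.299) had an unadjusted p of 0.248 in limma.

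**Figure D4:**
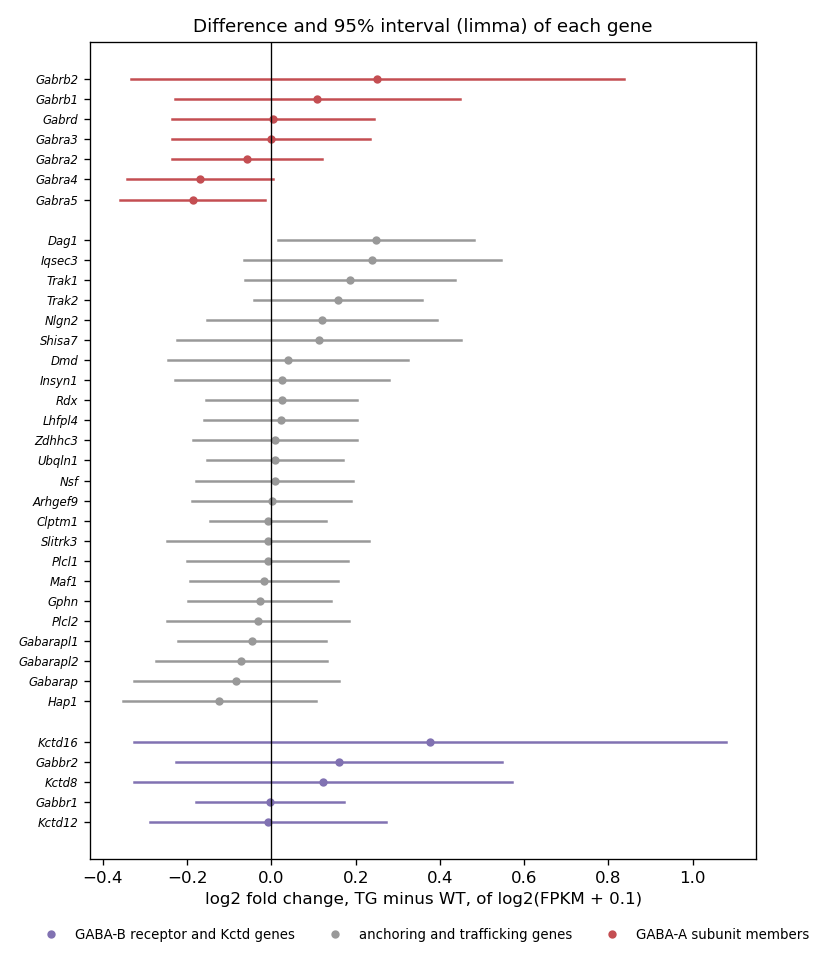
Log2 fold change of TG minus WT on log2(FPKM + 0.1) (horizontal axis), with the 95% interval from limma, for the 7 members (red), the 24 anchoring and trafficking genes (grey) and the 5 genes of the GABA-B list (purple). The intervals of Gabra5 and Dag1 are the ones that do not reach 0, and neither gene was called after adjustment.

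Because these were whole pieces of tissue, fewer cells of a type and less RNA per cell cannot be told apart, and marker genes of the cells that carry the members were set beside them. The 13 pan-neuronal genes had a summed FPKM of 1863 to 2047 over the WT libraries and 1763 to 1969 over the TG libraries, and none had an unadjusted p under 0.05. With a score of these genes as a covariate, the log2 fold change was -0.15 for Gabra5 and -0.16 for Gabra4 (unadjusted limma p of 0.0590 and 0.0965). Of 12 markers of dentate granule cells, which use alpha4 and delta, 5 had an unadjusted limma p under 0.05 on the lower side, namely Calb1, Stxbp6, Trpc6, Tdo2 and Cdh9, where 2.78% of all genes tested were lower, and none was lower after adjustment. By sign alone, 8 of the 12 log2 fold changes were negative and 4 were positive, among them Dsp at 0.014 and Lct at 0.13, while Prox1 had -0.090. Their summed FPKM was 155 to 185 over the WT libraries and 147 to 159 over the TG libraries. Calb1, for calbindin, had an FPKM of 25.8, 28.2 and 34.6 across the WT libraries and 23.7, 24.4 and 22.6 across the TG libraries (log2 fold change -0.31, unadjusted p = 0.0245, adjusted p = 0.786 in limma). For the 8 markers of CA1 pyramidal cells, which use alpha5, limma gave an unadjusted p under 0.05 for 1 higher and 1 lower gene, 1 was higher and none lower with limma-voom, none passed after adjustment with either, and the summed FPKM was 186 to 194 over the WT libraries and 186 to 220 over the TG libraries. The part of these cell types in the values of Gabra4 and Gabra5 was not tested.

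Markers of choroid plexus, the epithelium that secretes cerebrospinal fluid, separated the TG libraries from each other. The summed FPKM of the 16 markers was 84.5 to 117 over the WT libraries and 96.9 to 4219 over the TG libraries, TG1 and TG2 being high and TG3 at the WT level, and Ttr, which encodes transthyretin, reached 1168 and 3705 FPKM in TG1 and TG2 against 57.7 in TG3 and 49.8 to 73.0 in WT mice. TG3 alone, without TG1 and TG2, gave a log2 fold change of -0.23 for Gabra5 and of -0.18 for Gabra4. With all libraries the values were -0.19 and -0.17. With all 6 libraries and a choroid plexus score as covariate, the log2 fold change was -0.19 for Gabra5 and -0.18 for Gabra4 (unadjusted limma p of 0.162 and 0.181). The fit of TG3 alone was chosen after seeing the data, and the lone TG library is assumed to vary like the WT libraries. The part of choroid plexus tissue in the values of Gabra4 and Gabra5 was not tested.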

How the data were processed

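Hippocampal RNA of 3 WT and 3 TG mice was analysed. Per the paper's methods, the authors used HTSeq to count reads and derived FPKM from count and gene length, and the deposited table holds these FPKM, 1 column per library and not pooled. The submitters' processing notes name GRCm38 and mm10, and the aligner and strand setting were not given in the sources used here. Library kits differ between the methods (NEBNext) and the labels (SMARTER). The deposited gene length equalled the exon union of GENCODE M21 for 7 of 7 members. Multiplied by length and divided by the worth of a read in that library, the FPKM gave whole reads for 100% of values (tolerance 0.05 reads). P-values rest on the variation among these libraries only, with the variance of each gene moderated by limma using all genes tested.

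Groups were compared in limma 3.58.1 (R 4.3.3; lmFit, eBayes with trend, two-sided, no covariate) on log2(FPKM + 0.1), a scale that understates changes of low genes. Alternatives were another pseudocount, filter, scaling, variance model, limma-voom, replicate block, covariates, left-out libraries and a length and GC correction by medians of 10 bins each. Sequences and exons were read in Python 3.11.15 from GENCODE.

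All members are named. Of each further list of receptor genes, the most abundant gene and the gene with the smallest p in each direction were to be named, with some marker genes where they touch a member. Gphn, Nlgn2 and Gabbr2 fall outside this and were picked with their values in view. The 2 protein-coding genes with the highest r were named for each member. Results of some of the remaining subunit genes and marker genes are not reported here. The members and lists were chosen with earlier results of these data known.

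No gene of any marker list passed an adjusted p of 0.05 with limma or limma-voom. At an unadjusted p under 0.05, where 2.78% of all genes tested were lower and 3.13% higher with limma (2.31% and 3.67% with limma-voom), 2 of 11 oligodendrocyte genes were lower with limma and 4 with limma-voom, and 1 of 9 CA3 genes with either. Of 10 microglia genes, 2 were higher with limma and 1 with limma-voom, of 9 neocortex genes 3 and 4, and of 16 choroid plexus genes 10 and 4. None of the CA2, astrocyte or striatum genes passed with either test. No interneuron or thalamus gene passed with limma, and with limma-voom 1 interneuron gene was lower, 1 thalamus gene higher and 1 thalamus gene lower.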

Additional observations from a re-analysis of the deposited data

How the results depend on the processing

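No member passed an adjusted p of 0.05 in limma or limma-voom under any of the 20 alternatives, and Gabra2, Gabra4 and Gabra5 kept a negative log2 fold change in all of them. Over all genes tested, the adjusted calls, 1 higher and 1 lower as reported, were 11 and 0 without TG1, 6 and 3 without the variance trend, and at most 1 in each direction under the other alternatives. The number of members with an unadjusted p under 0.05 on the lower side, 1 as reported, was 2 without a filter and with upper-quartile scaling, and 0 without the variance trend, with the replicate block, with the choroid plexus or the pan-neuronal score as covariate and without both TG1 and TG2. It ranged from 0 to 2 when each library was left out. The sign of Gabra3 changed to 0.034 with TPM scaling, 0.039 with the choroid plexus score, 0.041 with the pan-neuronal score, 0.056 with the length and GC correction and 0.0041 without both TG1 and TG2. That of Gabrd changed to -0.0026 with upper-quartile scaling and -0.0056 with the length and GC correction, and its furthest values were 0.16 with the choroid plexus score and 0.14 without both TG1 and TG2. Leaving out each library gave log2 fold changes from -0.079 to 0.067 for Gabra3, -0.071 to 0.070 for Gabrd, -0.045 to 0.21 for Gabrb1 and -0.046 to 0.42 for Gabrb2, the lowest value of both beta genes being the one without WT3. In reads not divided by length, the shares in the alpha members were 12.9% (WT) and 13.5% (TG) for Gabra2, 22.8% and 22.3% for Gabra4, and 47.7% and 45.9% for Gabra5, because longer genes then weigh more.

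The replicate numbers are not stated to pair the mice, and the correlation of same-numbered deviations was 0.011 to 0.052, with 5 of 6 libraries most correlated with their own number. With the replicate block, the unadjusted limma p of Gabra5 was 0.0847 and that of Gabra4 was 0.0825. The 3 libraries per group limit the precision, and the widest 95% interval of a member, that of Gabrb2, ran from -0.33 to 0.84. The length and GC correction and the fit without both TG1 and TG2 were chosen after seeing the data.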
